A study of Drosophila melanogaster with 5 samples.

Results

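The genes described here are 42 protein-coding genes of Drosophila melanogaster known in the array annotation only by a CG number, the serial identifier given to predicted genes of this genome. They were chosen as probe sets with 1 annotated CG symbol, an intensity under 100 on both w1118 arrays and an intensity above 500 on all 3 arrays labelled Fkh. The rule found 45 probe sets, since CG6006, CG9449 and CG10344 each have a pair of them. The value table holds 18769 probe sets that are not array controls, for 11982 genes with a probe set of their own, and 5209 of these genes have a CG symbol. Because these intensities chose the genes, the difference between the groups is given for them as a description, without a test.

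The glands of the Fkh group came from P{hs-Fkh111} animals, with a transgene for the transcription factor Fork head under a heat-inducible promoter, and the group has 3 biological replicates. The w1118 group holds salivary glands of the strain w1118, written w1118(3) in the sample titles without explanation, and has 2 biological replicates. In both groups animals lived at 25 °C and received a heat shock 9.5 h past puparium formation, at 37 °C and lasting 30 min. Glands were taken at 14 h on the same clock, so that the controls carried the heat shock but not the transgene. A heat-shock promoter acts in all tissues of the animal, the labels do not say whether more than 1 line was used or how many animals were pooled, and intensities are those of whole dissected glands.

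Fork head is a winged-helix transcription factor of the FoxA family that is needed to form the salivary gland and to keep its secretory genes active, among them the genes of the glue that fixes the puparium to its substrate. The larval gland secretes this glue before pupariation and is destroyed by programmed cell death soon after the prepupal ecdysone pulse. Fork head is known to be lost from the gland before it dies, and its persistence is known to hold back the death genes.

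The probe set annotated to fkh itself had intensities of 41.5, 47.0 and 58.3 on the arrays labelled Fkh, against 130 and 120 on the w1118 arrays. The gene named in the label was thus lower on those arrays, with a log2 difference of -1.13 ± 0.17 (SE; limma, adjusted p = 0.0026), and whether this probe set reads the transgene's transcript was not tested. All directions below therefore rest on the labels. On the same arrays 9 of 12 glue genes rose and 1, Sgs7, fell, and ng4, among those that rose, was at 6426, 6048 and 4717 on the arrays labelled Fkh and 33.8 and 37.1 on the w1118 arrays. Of 6 tested gland regulator genes 3 rose, sage, sens and hry, and 2 fell, fkh and eyg. Among all 8298 genes tested, 21.5% rose and 19.3% fell. The 36 tested markers of other tissues were of fat body, haemocytes, muscle, gut and Malpighian tubule, testis, neurons, and trachea and cuticle. Of them 1 (2.78%) rose, the neuron marker Rdl, a GABA receptor gene, and 10 (27.8%) fell. Without Fkh array 1, or without either w1118 array, none of these markers rose, and without either w1118 array 5 fell. The summed intensity of the fat body list was 11825 to 13177 on the arrays labelled Fkh, against 21802 to 23057 on the w1118 arrays. Of 7 tested fat body genes 3 fell. The mean of Obp44a was 1704 on the arrays labelled Fkh against 6483 on the w1118 arrays, while that of apolpp was 2625 against 2960. The haemocyte list summed to 1560 to 2152 on the arrays labelled Fkh, against 3701 to 3777 on the w1118 arrays. Of 7 tested haemocyte genes 5 fell, with means of 1305 against 2285 for crq and 222 against 912.5 for NimC4. Pxn, at 76.6 against 86.5, and He, at 39.8 against 34.8, were not called. The sums of the muscle list were 722 to 898 on the arrays labelled Fkh and 704 to 733 on the w1118 arrays. All 10 testis markers stayed under 100 on every array. The part of these lists in the values of the 42 genes was not tested. The actin control read at its 3′ end over its 5′ end, which moves with RNA quality, was 4.94, 4.30 and 3.37 on the arrays labelled Fkh and 2.47 and 2.54 on the w1118 arrays, and its part in the results was not tested.

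Over the 45 probe sets the mean intensity ran over 587 to 14301 on the arrays labelled Fkh, with a median of 1399, and over 7.26 to 89.3 on the w1118 arrays, with a median of 34.1. The median log2 difference was 5.01 and the range was 2.69 to 8.16, computed as log2(intensity + 16), a scale that understates the change of dim probe sets. The same thresholds passed 0.549% of all probe sets and 0.794% of probe sets with a CG symbol. The mirrored direction asks for under 100 on all 3 arrays labelled Fkh and above 500 on both w1118 arrays. There 14 probe sets with a CG symbol passed, 0.247% of them, against 0.192% of all probe sets. The middle probe set of a w1118 array had an intensity of 49.1 or 49.5. On both w1118 arrays 26 of the 45 probe sets lay below that array's middle value and 14 lay above it, so most of the w1118 values are in the dim range where intensities carry little order. In bulk tissue, fewer cells that hold a transcript and less transcript per cell cannot be told apart.

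**Figure D1:**
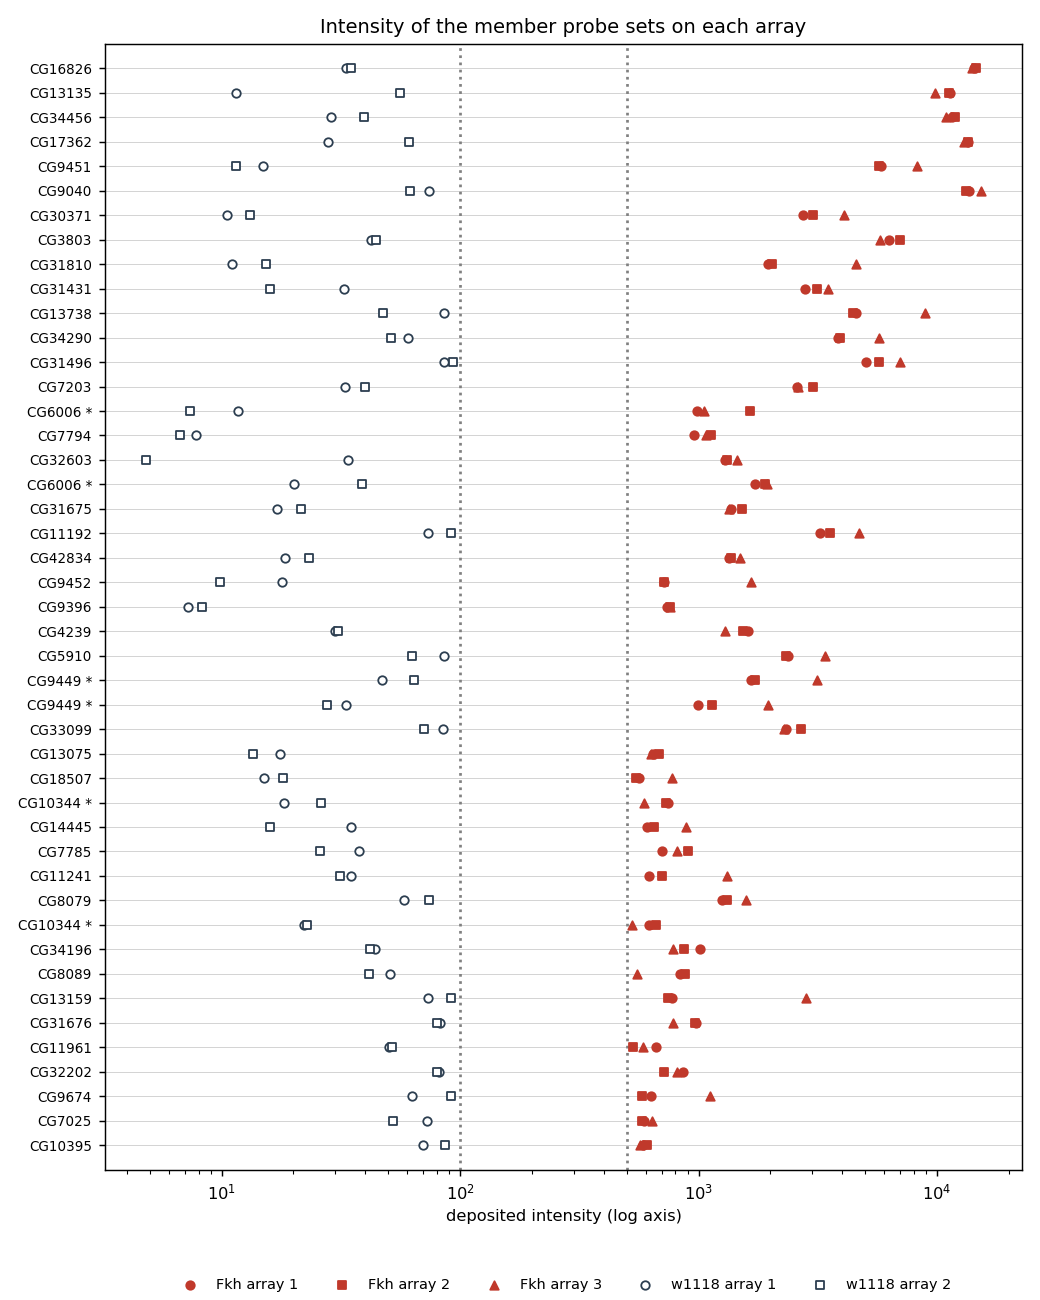
Intensity of the 45 probe sets of the 42 genes on each array, on a log axis; filled red symbols are the 3 arrays labelled Fkh and open symbols the 2 w1118 arrays, dotted lines mark 100 and 500, and stars mark genes with 2 probe sets. The log2 differences run over 2.69 at CG10395 to 8.16 at CG16826 with a constant of 16, and the largest ratio of means is that of CG9451, 499.

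At 5 of the probe sets, CG16826, CG9040, CG17362, CG34456 and CG13135, the mean on the arrays labelled Fkh was over 10000, near the top of the scale, where the brightest probe set of an array reads between 15488 and 16327. The sources used here give no role for these genes. CG16826 had intensities of 14333, 14603 and 13969 on the arrays labelled Fkh, against 33.3 and 34.9 on the w1118 arrays. CG34456 had 11531, 11919 and 10929 on the arrays labelled Fkh, against 28.8 and 39.5 on the w1118 arrays. Both genes were even across the arrays labelled Fkh. CG13135 had 11353, 11229 and 9831 on the arrays labelled Fkh, against 11.4 and 55.7 on the w1118 arrays. Its w1118 pair was the one that differed most in this group of 5, at intensities below or near the middle of the array. The log2 differences were 8.16 for CG16826, 7.85 for CG34456 and 7.93 for CG13135.

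CG17362 and CG9040, also in this group of 5, lie next to each other in the RefSeq gene order. CG17362 read 13435, 13521 and 13001 on the arrays labelled Fkh and 28.0 and 60.9 on the w1118 arrays. CG9040 read 13659, 13183 and 15243 on the arrays labelled Fkh and 74.1 and 61.5 on the w1118 arrays. The log2 differences of the pair were 7.84 and 7.39. The rule that chose both genes requires a dim w1118 signal and a bright Fkh signal. CG13738 lies on the same stretch, with Hsc70-1 and CG17364 between it and CG17362. CG13738 read 4574, 4438 and 8905 on the arrays labelled Fkh and 85.3 and 47.5 on the w1118 arrays, a log2 difference of 6.14. Of the genes between and beside them, CG17364 rose, with a log2 difference of 1.46 ± 0.23 (SE; limma, adjusted p = 0.0032), at intensities of 54.4 to 83.2 on the arrays labelled Fkh and 10.1 and 21.5 on the w1118 arrays. Hsc70-1, a heat-shock cognate gene, had a log2 difference of -0.24 ± 0.22 (SE; limma, adjusted p = 0.44). CtsK1, on the other side of CG9040, had one of 0.05 ± 0.19 (SE; limma, adjusted p = 0.86).

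CG9449, CG9451 and CG9452 stand in a row in the gene order and belong to the acid phosphatase family, enzymes that release phosphate from esters at low pH. CG9451 had intensities of 5804, 5707 and 8274 on the arrays labelled Fkh, against 14.9 and 11.5 on the w1118 arrays. CG9449 had 1662, 1717 and 3137 on the arrays labelled Fkh, against 47.0 and 63.9 on the w1118 arrays. The other probe set of CG9449 had 993, 1135 and 1963 on the arrays labelled Fkh, against 33.3 and 27.7 on the w1118 arrays. All 3 genes were highest on Fkh array 3. CG9452 had 719, 714 and 1663 on the arrays labelled Fkh, against 18.0 and 9.83 on the w1118 arrays. The log2 differences were 7.80 for CG9451, 4.88 and 4.83 for the probe sets of CG9449, and 5.03 for CG9452, so the pair of probe sets of CG9449 gave nearly the same difference. CG32212, the tested gene beside the row, had a log2 difference of -0.39 ± 0.21 (SE; limma, adjusted p = 0.19).

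CG30371, CG11192 and CG34290 carry the synonyms SP80, SP82 and SP245 in the RefSeq gene table. This numbering is used for serine proteases, enzymes that cut other proteins, and for their homologues. The synonyms do not say whether these 3 genes encode active enzymes. CG30371 had intensities of 2748, 3005 and 4080 on the arrays labelled Fkh, against 10.5 and 13.1 on the w1118 arrays. CG34290 had 3846, 3929 and 5733 on the arrays labelled Fkh, against 60.5 and 51.2 on the w1118 arrays. CG11192 had 3235, 3565 and 4684 on the arrays labelled Fkh, against 73.5 and 91.6 on the w1118 arrays. All 3 were highest on Fkh array 3, and their log2 differences were 6.87, 5.95 and 5.27 in the order just given. CG7025, of the zinc carboxypeptidase family, which trims amino acids from the end of peptides, had 588, 577 and 636 on the arrays labelled Fkh, against 72.5 and 52.4 on the w1118 arrays. Its log2 difference of 2.98 was the second smallest of the 45, and its lowest Fkh value lay close to the threshold of 500.

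CG31810 belongs to the short-chain dehydrogenase family, whose members oxidise or reduce small molecules such as steroids and retinoids. It had intensities of 1953, 2035 and 4583 on the arrays labelled Fkh, against 11.0 and 15.3 on the w1118 arrays, a log2 difference of 6.51. A probe set shared by CG31810 and its neighbour CG31809 had 992, 912 and 2757 on the arrays labelled Fkh, against 17.0 and 4.20 on the w1118 arrays. The probe set of CG31809 alone stayed dim, at 23.8, 33.9 and 64.1 on the arrays labelled Fkh and 8.98 and 21.7 on the w1118 arrays. CG13284, of the same family and on the other side of CG31810, rose, with 459, 549 and 1357 on the arrays labelled Fkh and 42.2 and 41.6 on the w1118 arrays. Its log2 difference was 3.63 ± 0.43 (SE; limma, adjusted p = 0.00097). CG13284 missed the rule through 1 value, the 459 of Fkh array 1.

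Other genes with enzyme or transport roles were in the set. CG9396 belongs to the mitochondrial pyruvate carrier family, which brings pyruvate into mitochondria, and had 735, 761 and 756 on the arrays labelled Fkh, against 7.26 and 8.27 on the w1118 arrays. Its neighbour CG9399, of the same family, rose, with 880, 880 and 728 on the arrays labelled Fkh and 76.4 and 104 on the w1118 arrays. The log2 difference was 5.01 for CG9396 and 3.00 ± 0.19 (SE; limma, adjusted p = 5.6e-05) for CG9399, which missed the rule by 1 w1118 value. CG3803, a homologue of the gene for a haem A synthesis enzyme of the mitochondrial respiratory chain, had 6300, 6965 and 5761 on the arrays labelled Fkh, against 42.4 and 44.4 on the w1118 arrays. CG9674, with the synonym GS, encodes glutamate synthase, and had 629, 579 and 1117.7 on the arrays labelled Fkh, against 63.1 and 91.7 on the w1118 arrays. CG3803 was even across the arrays labelled Fkh, while CG9674 was highest on array 3. The log2 differences were 6.74 for CG3803 and 3.04 for CG9674. CG11241, of the aminotransferase family, had 622, 701 and 1316 on the arrays labelled Fkh, against 34.8 and 31.5 on the w1118 arrays. CG6006, of the organic cation transporter family, had 984, 1648 and 1052 at one probe set and 1719, 1898 and 1943 at the other on the arrays labelled Fkh, against 11.7 and 7.36 and against 20.1 and 38.6 on the w1118 arrays. The log2 differences of CG6006 were 5.57 and 5.39, with ratios of means of 129 and 63.1 that rest on w1118 values in the dim range, and the log2 difference of CG11241 was 4.11.

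CG31675 and CG31676 belong to the Ly6 family of small membrane-anchored proteins. CG31675 had 1361, 1517 and 1344 on the arrays labelled Fkh, against 17.1 and 21.5 on the w1118 arrays. CG31676 had 977, 964 and 781 on the arrays labelled Fkh, against 82.4 and 80.3 on the w1118 arrays. The log2 differences were 5.34 and 3.24, and neither gene was highest on Fkh array 3. CG14401 and CG9338, the Ly6 family genes on either side of CG31675, were bright in both groups. CG14401 rose, with 1897, 2103 and 3165 on the arrays labelled Fkh and 911 and 947 on the w1118 arrays, a log2 difference of 1.31 ± 0.24 (SE; limma, adjusted p = 0.0057). CG9338 had 1712, 1900 and 1722 on the arrays labelled Fkh and 1454 and 1130 on the w1118 arrays, a log2 difference of 0.47 ± 0.17 (SE; limma, adjusted p = 0.071).

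CG7794, with the synonym Tub1B and of the tubulin family, and CG7785, with the synonym CLLD6, lie next to each other. CG7794 had 954, 1126 and 1077 on the arrays labelled Fkh, against 7.83 and 6.68 on the w1118 arrays. CG7785 had 706, 904 and 811 on the arrays labelled Fkh, against 37.8 and 25.8 on the w1118 arrays. The log2 differences were 5.52 and 4.11, and the gene beyond CG7794, htl, a fibroblast growth factor receptor, had one of 0.44 ± 0.16 (SE; limma, adjusted p = 0.074).

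For the remaining genes no family is stated here. CG31496 had the highest w1118 value of the set, with 5054, 5687 and 7002 on the arrays labelled Fkh against 85.4 and 93.1 on the w1118 arrays. CG5910 had 2372, 2331 and 3397 on the arrays labelled Fkh, against 85.7 and 62.8 on the w1118 arrays. CG13075 had 644, 681 and 633 on the arrays labelled Fkh, against 17.5 and 13.5 on the w1118 arrays. The log2 differences of these genes were 5.80, 4.90 and 4.41 in that order. A further 9 genes, CG31431, CG7203, CG33099, CG4239, CG42834, CG8079, CG34196, CG32202 and CG14445, had intensities of 606 to 3476 on the arrays labelled Fkh and 15.9 to 84.9 on the w1118 arrays. Their log2 differences ran over 3.06 to 6.32.

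The genes closest to the thresholds show how far the set depends on them. Just inside the upper threshold were CG10344, CG11961, CG18507, CG8089, CG10395 and CG7025, each with its lowest Fkh array between 527 and 577. CG10344 had 620, 662 and 527 at one probe set and 741, 731 and 591 at the other on the arrays labelled Fkh, against 22.1 and 22.9 and against 18.3 and 26.0 on the w1118 arrays. CG11961 had 662, 532 and 586 on the arrays labelled Fkh, against 50.4 and 52.0 on the w1118 arrays. CG10395 had 586, 607 and 568 on the arrays labelled Fkh, against 69.7 and 86.4 on the w1118 arrays. The log2 differences of these genes were smaller than the median of the set: 4.002 and 4.21 for CG10344, 3.18 for CG11961 and 2.69 for CG10395. Just outside the upper threshold were CG42542, CG12111, CG14395, CG13284, CG13461, CG4267, CG8087 and CG8435, with a lowest Fkh array between 401 and 497. CG8087 was kept out by 1 array, with 2493, 2661 and 419 on the arrays labelled Fkh and 25.2 and 43.8 on the w1118 arrays. CG14395 was kept out by Fkh arrays 1 and 2, with 477, 479 and 1390 on the arrays labelled Fkh and 27.8 and 7.75 on the w1118 arrays. Just outside the lower threshold were CG13698, CG9399, CG11034, CG5160, CG7272, CG5339, CG8366 and CG43103, with a highest w1118 array between 101 and 117. CG43103 was bright with Fkh, with 7320, 7163 and 8785 on the arrays labelled Fkh and 117 and 96.9 on the w1118 arrays. With thresholds of 50 and 1000, 13 probe sets passed, and with 150 and 300, 98 passed.

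**Figure D2:**
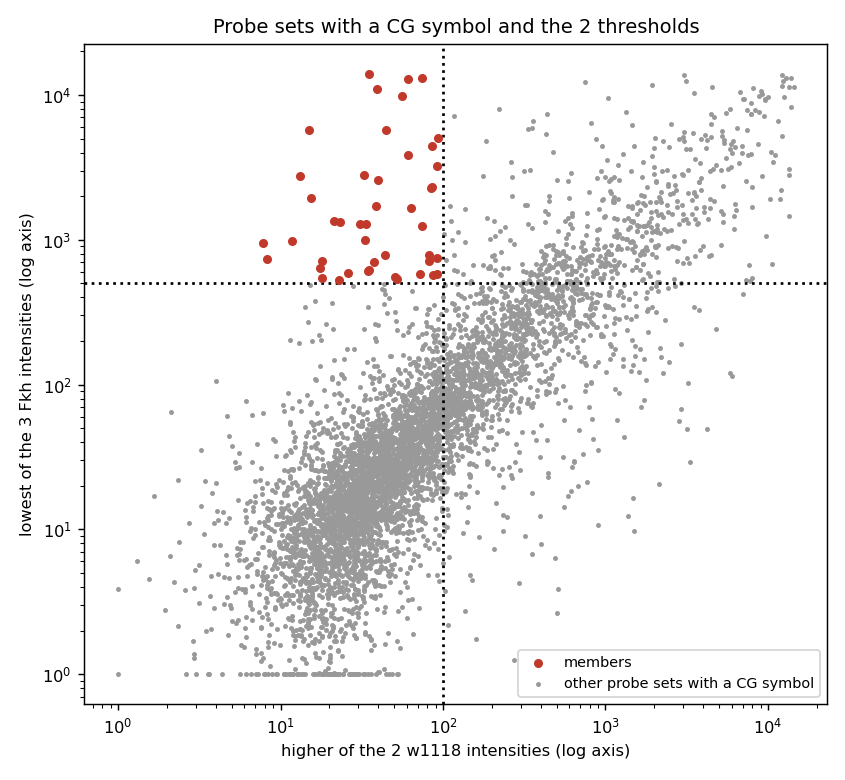
Each point is a probe set with a CG symbol, with the higher of its 2 w1118 intensities on the horizontal axis and the lowest of its 3 Fkh intensities on the vertical axis, both on log axes, and dotted lines at 100 and 500; values under 1 are drawn at 1. The 45 chosen probe sets (red) lie in the upper left corner, and other probe sets (grey) lie close beyond both of its borders.

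Further probe sets of the same genes, which the rule did not pick, gave a mixed picture. CG18507 had 561, 547 and 773 on the arrays labelled Fkh, against 15.1 and 18.0 on the w1118 arrays, at the chosen probe set. A second probe set had 5782, 6169 and 7562 on the arrays labelled Fkh, against 333 and 274 on the w1118 arrays, and another had 2745, 3054 and 4891 on the arrays labelled Fkh, against 176 and 155 on the w1118 arrays. The ratio of the Fkh mean to the w1118 mean was 37.9 at the chosen probe set and 21.4 and 21.5 at these further ones, where the w1118 signal was above 100. The log2 differences were 4.29, 4.35 and 4.26 in the order of the values, on a scale whose constant of 16 is close to the w1118 values of the chosen probe set. CG32603 had 1292, 1311 and 1454 on the arrays labelled Fkh, against 33.7 and 4.83 on the w1118 arrays, a log2 difference of 5.41. Its other probe set, of a type that the maker marks as open to cross-hybridisation, had 1466, 1465 and 1405 on the arrays labelled Fkh, against 1112 and 1385 on the w1118 arrays, a log2 difference of 0.22. The other probe set of CG13135 had 46.3, 58.5 and 52.7 on the arrays labelled Fkh, against 25.2 and 35.3 on the w1118 arrays, a log2 difference of 0.57. The probe sets of CG32603 and of CG13135 thus disagree, and the large difference of each gene rests on 1 probe set. Of the 45 chosen probe sets, 6 are of the type that the maker marks as reading several transcripts of a gene, 3 of the type that several genes may share and 0 of the type open to cross-hybridisation.

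Fkh array 3 differed from the other arrays of its group at part of the genes. The first 2 arrays labelled Fkh were within 1.5-fold of each other at 44 of 45 probe sets, the exception being CG6006, at 1.68-fold. Fkh array 3 was at least 1.5-fold above their mean at 8 of 45 probe sets (17.8%) and at least 1.5-fold below it at 1 (2.22%). Among all 2434 probe sets above 500 on the 3 arrays labelled Fkh, 104 (4.27%) were at least 1.5-fold above and 273 (11.2%) at least 1.5-fold below. The 8 were CG13159 at 3.70-fold, CG9452 at 2.32-fold, CG31810 at 2.30-fold, CG11241 at 1.99-fold, CG13738 at 1.98-fold, CG9449 at 1.86-fold and 1.84-fold, and CG9674 at 1.85-fold. CG13159 had 772, 748 and 2812 on the arrays labelled Fkh, against 73.7 and 91.7 on the w1118 arrays. CG8089 was the one below, with 834, 879 and 550 on the arrays labelled Fkh, against 50.6 and 41.6 on the w1118 arrays. High values on array 3 were not particular to genes with a CG symbol. Probe sets with another symbol that passed the same thresholds held Uck at 4.15-fold, PGRP-LB at 3.13-fold and Cyp6a20 at 2.56-fold. They also held lower ones, Vm34Ca at 0.51-fold and mthl8 at 0.55-fold. The median ratio of Fkh array 3 to the mean of the other arrays was 1.07 over the 45 and 0.94 over the 2434. The mean of the bioB hybridisation controls was 398, 388 and 744 on the arrays labelled Fkh, against 662 and 621 on the w1118 arrays, so that Fkh array 3 lay closer to the w1118 arrays in this control, and its part in these ratios was not tested. With Fkh array 3 as the only array of its group, 53 probe sets passed the rule.

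**Figure D3:**
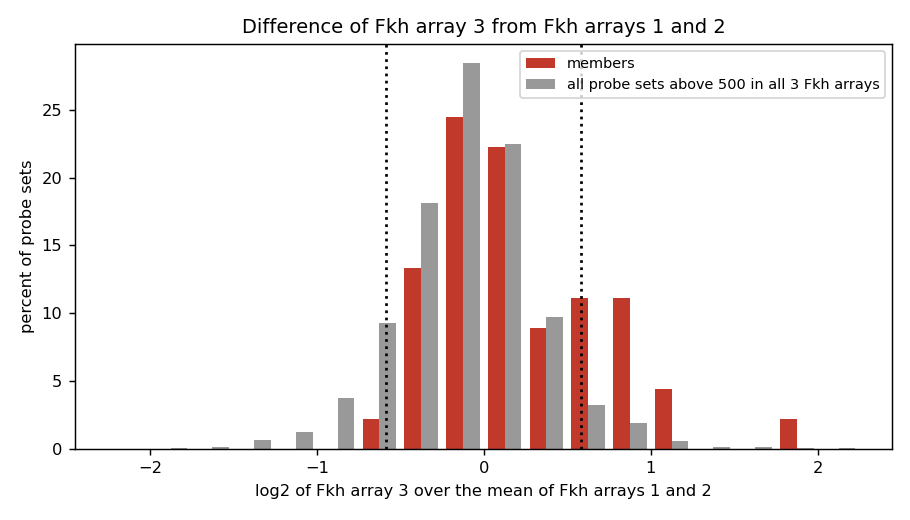
Percent of probe sets by the log2 ratio of Fkh array 3 to the mean of Fkh arrays 1 and 2, for the 45 chosen probe sets (red) and for all 2434 probe sets above 500 on the 3 arrays labelled Fkh (grey), with dotted lines at a 1.5-fold difference either way. The chosen probe sets run over 0.64-fold to 3.70-fold and all 2434 over 0.26-fold to 4.15-fold, and 17.8% of the chosen ones lie to the right of the right-hand line, against 4.27% of all.

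The genes that lie next to the 42 were not chosen by their own values, and could be tested. Leaving out the 42 themselves, they have 76 nearest neighbours in the RefSeq gene order, of which 57 have a probe set of their own. With no filter on dim probe sets, 18 of the 57 (31.6%) rose and 4 fell, with a median log2 difference of 0.16, against 14.1% of all genes that rose and 13.2% that fell. With the filter on the mean over all arrays, 39 were tested, of which 21 (53.8%) rose and 3 (7.69%) fell. Among all 8298 genes that passed this filter, 21.5% rose and 19.3% fell, and over all tested probe sets 20.7% rose and 18.7% fell. A gene can pass the filter through the group where it is high. All 6 neighbours that passed with a w1118 mean under its limit rose, as did 292 of all 444 such genes (65.8%). Of the 31 neighbours with both group means above the limit, 15 (48.4%) rose and 3 fell, against 19.9% and 18.5% of 7483 such genes in all. With 2 genes taken on each side, 30 of 80 (37.5%) rose and 8 fell. Of the 28 genes of the set with a tested neighbour, 16 had one that rose. The matching share among other genes was not computed, so this count has no background here. Neighbours of a gene chosen here share these arrays with it, and some pairs belong to 1 family, so the neighbours are not independent of each other. With Fkh array 3 as the only array of its group, the neighbours with the largest rise and fall, Uck and CG5346, kept their directions. Their log2 differences were then 5.58 and -1.34.

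**Figure D4:**
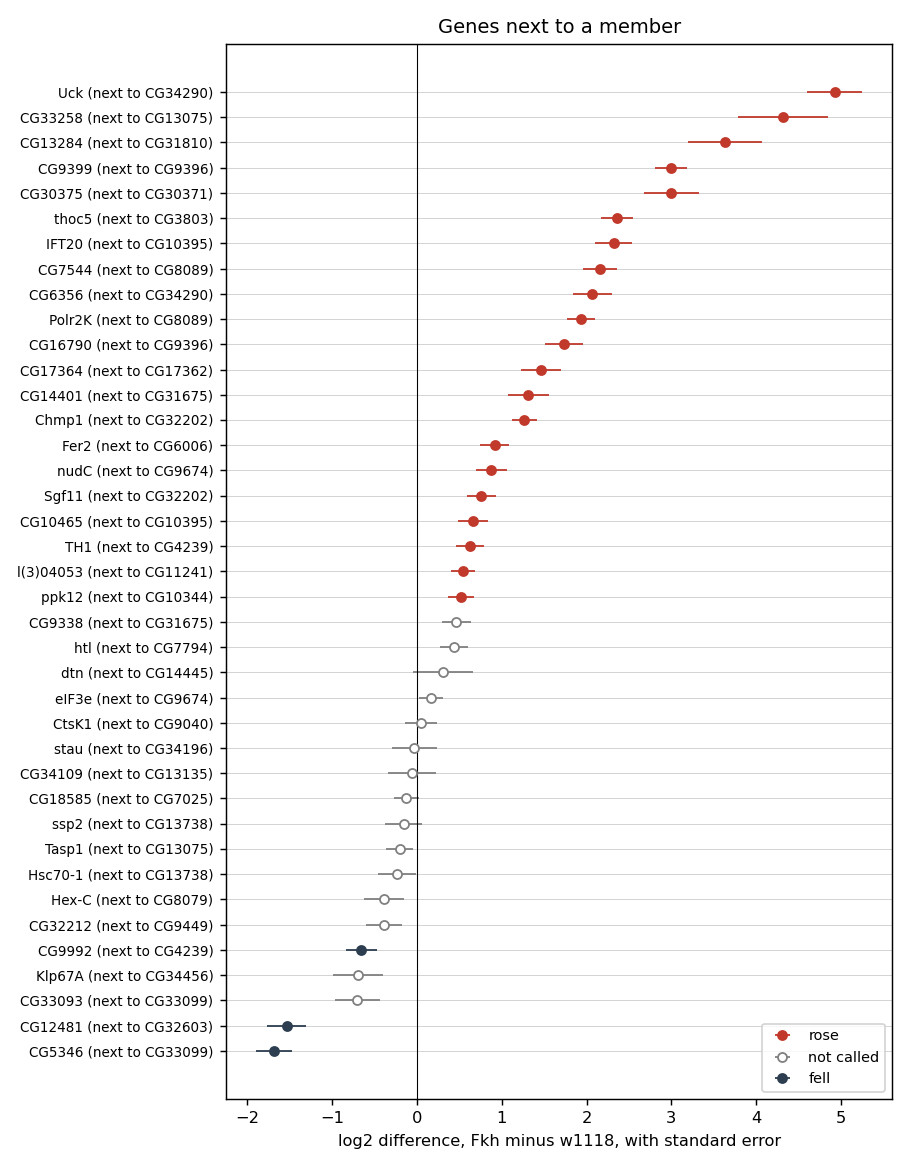
Log2 difference, Fkh minus w1118, with its standard error from limma for the 39 genes that passed the filter next to 1 of the 42 genes; red marks the 21 that rose, dark blue the 3 that fell and open grey the others. Each gene is shown by its probe set of highest mean, Uck lies furthest to the right, at 4.93, and CG5346 furthest to the left, at -1.68.

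At the probe sets of highest mean, the neighbour with the largest difference was Uck, a uridine-cytidine kinase gene of pyrimidine salvage that lies next to CG34290. Uck had 6087, 6332 and 12310 on the arrays labelled Fkh, against 261 and 223 on the w1118 arrays, a log2 difference of 4.93 ± 0.32 (SE; limma, adjusted p = 6.9e-05). A second probe set of Uck had 817, 757 and 3269 on the arrays labelled Fkh, against 97.8 and 99.5 on the w1118 arrays, a smaller log2 difference of 3.48, and was highest on Fkh array 3 as well. On the other side of CG34290, CG6356, of the organic cation transporter family like CG6006, had 2659, 3153 and 3540 on the arrays labelled Fkh, against 890 and 592 on the w1118 arrays. It rose by a log2 difference of 2.07 ± 0.23 (SE; limma, adjusted p = 0.00065), so both flanks of CG34290 were higher. CG30375, next to CG30371, had 2899, 3462 and 4769 on the arrays labelled Fkh, against 317 and 612 on the w1118 arrays, a log2 difference of 3.00 ± 0.32 (SE; limma, adjusted p = 0.00063). CG33258, next to CG13075, had 872, 943 and 262 on the arrays labelled Fkh, against 11.6 and 19.1 on the w1118 arrays. Its log2 difference was 4.31 ± 0.53 (SE; limma, adjusted p = 0.0011), and Fkh array 3 was its lowest, unlike CG13075, which was even across the Fkh arrays.

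Neighbours with known roles outside secretion also rose. CG8089 lies between Polr2K, a subunit of the RNA polymerases, and CG7544. Polr2K had 2335, 2295 and 1863 on the arrays labelled Fkh, against 573 and 530 on the w1118 arrays, a log2 difference of 1.94 ± 0.17 (SE; limma, adjusted p = 0.00024). CG7544 had 173, 162 and 113 on the arrays labelled Fkh, against 20.6 and 20.4 on the w1118 arrays, a log2 difference of 2.16 ± 0.20 (SE; limma, adjusted p = 0.00035). All 3 genes at this place were lowest in their Fkh group on array 3. Next to CG3803, thoc5, of the THO complex that couples transcription to RNA export, had 583, 604 and 439 on the arrays labelled Fkh, against 89.3 and 93.9 on the w1118 arrays, a log2 difference of 2.36 ± 0.19 (SE; limma, adjusted p = 0.00016). Next to CG10395, IFT20, of the transport system of cilia, had 223, 162 and 264 on the arrays labelled Fkh, against 32.0 and 27.7 on the w1118 arrays, a log2 difference of 2.32 ± 0.22 (SE; limma, adjusted p = 0.00035). Chmp1, of the membrane-cutting ESCRT machinery and next to CG32202, had 2039, 2278 and 2376 on the arrays labelled Fkh, against 919 and 915 on the w1118 arrays, a log2 difference of 1.26 ± 0.15 (SE; limma, adjusted p = 0.00094). These neighbours were given with values because their p was among the smallest, so differences well above their standard errors follow from that choice.

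The opposite direction was seen at 3 neighbours. CG5346, next to CG33099, had 1613, 1725 and 2398 on the arrays labelled Fkh, against 6392 and 5780 on the w1118 arrays, and fell by 1.68 ± 0.21 on the log2 scale (SE; limma, adjusted p = 0.0011). CG12481, next to CG32603, had 48.3, 50.4 and 51.0 on the arrays labelled Fkh, against 229 and 133 on the w1118 arrays, and fell by 1.54 ± 0.23 on the log2 scale (SE; limma, adjusted p = 0.0025). CG9992, next to CG4239, fell by 0.66 ± 0.18 on the log2 scale (SE; limma, adjusted p = 0.028). CG9992 and the rising neighbours CG10465, TH1, ppk12, Sgf11 and nudC, and that of CG11241, lost their calls in at least 1 fit that left out an array. The fits that left out Fkh array 1, Fkh array 2 or either w1118 array were those in which calls were lost. The other 15 rising neighbours and the other 2 falling ones were called in every such fit.

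**Figure D5:**
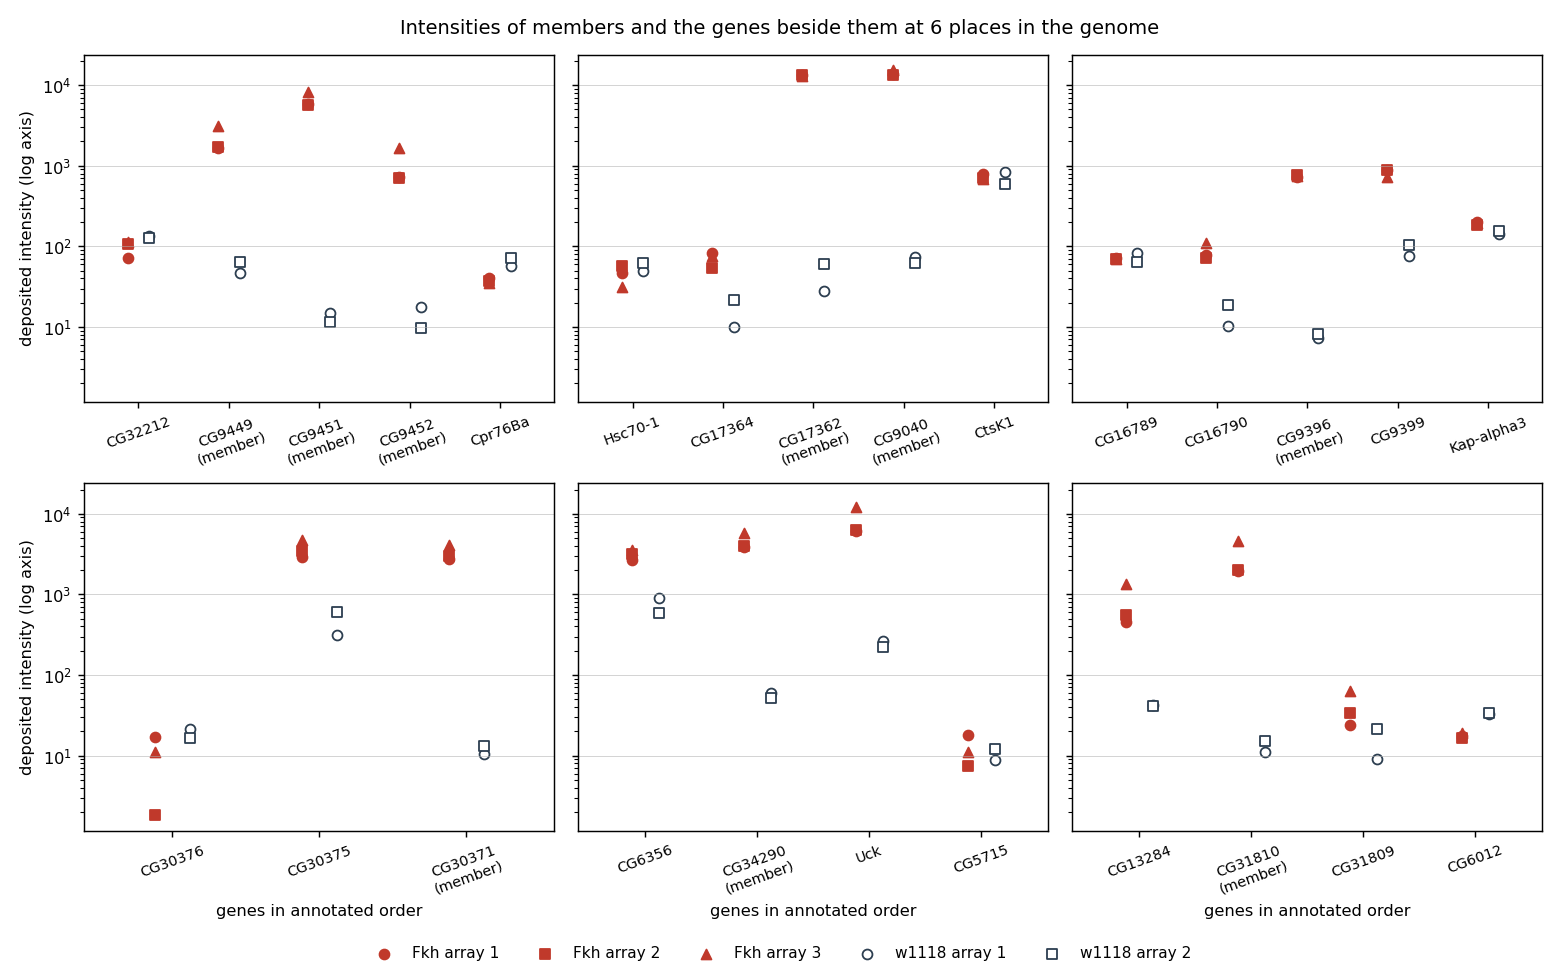
Intensities on the 5 arrays, on a log axis, of genes of the set (marked as members) and the genes beside them in annotated order at 6 places; filled red symbols are the arrays labelled Fkh and open symbols the w1118 arrays. CG9449, CG9451 and CG9452, which the rule chose as dim in w1118 and bright with Fkh, stand in a row. CG32212 before the row and Cpr76Ba after it show no such gap. Cpr76Ba, which lies beyond the RNA gene CR45731, fell, with a log2 difference of -0.59 ± 0.16 (SE, limma, adjusted p = 0.027).

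Among genes with a CG symbol other than the 42, 638 of 3084 tested (20.7%) rose and 635 fell, against 1104 of 5172 genes with another symbol (21.3%) that rose and 969 that fell. Among probe sets with another symbol, 38 of 7980 (0.476%) passed the same thresholds of 100 and 500.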

How the data were processed

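RNA from glands was read on 5 1-colour Affymetrix arrays, 3 of the Fkh and 2 of the w1118 group. Each probe set has 1 linear intensity per array, which the authors obtained with dChip by scaling every array to a baseline array, per the labels' design text. Version and expression model of dChip are not given in the sources used. Array number limits the precision. The p-values set the difference between the groups against the spread between these biological replicates, moderated by the spread over all probe sets tested.

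The rule was applied to the deposited values of 18769 probe sets, with 183 controls left out. Of them 13647 have 1 gene symbol, 402 several and 4720 none. No gene was named from a probe set with several, other than the shared probe set of CG31810 and CG31809. Values were tested as log2(intensity + 16) with limma 3.58.1 run under R 4.3.3 (a two-sided moderated test, Benjamini-Hochberg adjustment over 11261 probe sets with a mean log2 above the 40th percentile, threshold 0.05). A gene was represented by its 1-symbol probe set of highest mean. "Rose" and "fell" mean past this threshold. The test was tried on simulated data. Neighbours are the nearest genes in the RefSeq table of gene order, with which all 42 symbols matched, and members of the set were left out of them. No coordinates are printed, since the files name no build.

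The genes and all lists were chosen with earlier results of these data known. By rule, values on every array were given for the 12 genes with the highest Fkh mean, those closest to the thresholds and those next to each other, and for the 12 neighbours with the smallest p. Other genes named with values were added after their values were seen. Replicate numbers were not used to pair the arrays. The correlation of the deviations of same-numbered arrays from their group means was 0.08 for number 1 and -0.11 for number 2. With 2 w1118 arrays the deviations of one mirror those of the other. These values therefore cannot decide whether same-numbered arrays were handled together. Alternatives changed the constant, the filter, the scaling, the eBayes trend, the thresholds and the arrays used. A comparison of protein relatives and a search of promoters for forkhead motifs were planned, but were not run here, since both need sequences.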

Additional observations from a re-analysis of the deposited data

How the results depend on the processing

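The number of chosen probe sets, 45, was 13 with thresholds of 50 and 1000 and 98 with 150 and 300, by construction. It was 46 to 54 when 1 array was left out. The median log2 difference of 5.01 became 5.56 with a constant of 1 and 4.10 with a constant of 64. Leaving out 1 array in turn gave 1598 to 2581 probe sets that rose and 1222 to 2309 that fell, against 2328 and 2104 with all arrays. The same fits gave 15 to 22 rising neighbours and 2 to 3 falling ones, 0 to 2 rising and 5 to 14 falling other-tissue markers, 12 to 13 rising and 1 to 4 falling glue and gland regulator genes, and 456 to 710 rising and 353 to 706 falling genes with a CG symbol. With all arrays, 12 of 18 tested glue and gland regulator genes rose and 3 fell. No other-tissue marker rose without the filter, 0 in all, or with quantile normalization, also 0. With 2 neighbours on each side 8 fell. Fkh array 3 alone against both w1118 arrays, chosen after seeing the data, pools the spread of 1 group. It gave a median of 5.36, 1337 probe sets that rose and 1397 that fell, 13 rising neighbours, 3 falling other-tissue markers, 1 falling glue or regulator gene, and 368 rising and 421 falling genes with a CG symbol. Fewer arrays entered these fits, and other causes were not tested. With the replicate number as a block, 2350 probe sets rose and 2019 fell, and 20 neighbours rose and 3 fell. Whether the replicate numbers pair the arrays is not given in the labels. Without the filter, CG10465, CG9992, TH1, ppk12 and the neighbour of CG11241 lost their calls, with adjusted p from 0.052 to 0.080 over more probe sets tested. The call of ppk12 was also lost with a constant of 64 or an intensity trend, and that of the neighbour of CG11241 with the replicate block. With quantile normalization 2213 probe sets rose and 2412 fell, and 612 genes with a CG symbol rose and 720 fell, so that falling calls outnumbered rising ones; the cause was not tested. The genes followed through these settings were fkh, sage, sens, hry, Sgs3, ng4 and the neighbours called with all arrays. None of their differences changed sign where they were tested, and other named genes were not followed. The alternatives for protein relatives and for promoters with a forkhead core motif were not run.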

Other observations

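The same thresholds passed 38 probe sets of 37 genes with a symbol of another form, and the genes named here were chosen after their values were seen. Drip, a water channel gene, had 2606, 3160 and 3483 on the arrays labelled Fkh, against 49.4 and 40.5 on the w1118 arrays. The ion channel gene ppk28, known for sensing water in taste neurons, had 2608, 2965 and 3347 on the arrays labelled Fkh, against 14.5 and 30.8 on the w1118 arrays. The thresholds themselves require a high value on all 3 arrays labelled Fkh. Poxn, a paired-box transcription factor of sensory organs, had 5906, 5824 and 6099 on the arrays labelled Fkh, against 46.2 and 63.7 on the w1118 arrays. Vm34Ca, an eggshell protein gene of the vitelline membrane, had 5473, 6235 and 2981 on the arrays labelled Fkh, against 38.6 and 41.7 on the w1118 arrays. Pdf, a neuropeptide gene of the clock neurons, had 763, 597 and 839 on the arrays labelled Fkh, against 13.3 and 22.7 on the w1118 arrays. These genes are known from tissues other than the gland, while the same 37 genes also hold ng1 and ng4 of the glue list. Of the 6 neuron markers tested on the same arrays, elav and nSyb fell, Rdl rose, and brp, futsch and Appl did not pass the test.

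The mirrored pattern was found at 14 probe sets with a CG symbol (0.247%), against 0.192% of all probe sets. CG33181 had 56.4, 60.8 and 49.5 on the arrays labelled Fkh, against 3815 and 4219 on the w1118 arrays, at one probe set, and 30.6, 20.9 and 20.6 on the arrays labelled Fkh, against 1225 and 2129 on the w1118 arrays, at the other. CG3277 had 48.9, 64.5 and 29.4 on the arrays labelled Fkh, against 3294 and 3195 on the w1118 arrays. CG33127, of the serine protease family, had 56.3, 60.5 and 72.6 on the arrays labelled Fkh, against 2372 and 2835 on the w1118 arrays.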
